A study of Homo sapiens with 4 samples.

Results

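The antigen receptor loci are the 6 stretches of the genome from which B and T cells assemble their receptors: the immunoglobulin heavy chain (IGH), kappa (IGK) and lambda (IGL) loci, and the T-cell receptor alpha and delta (TRA/TRD), beta (TRB) and gamma (TRG) loci. They were taken by position on hg19, without use of any measured value, as all bins of 80 kb that overlap a fixed range of each locus. This gave 39 bins of the 27704 in the deposited table. All 6 loci had bins, but in unequal number. TRA/TRD had 14 of the 14 bins that its range spans and TRG 5 of 5, while IGL had 12 of 14. IGK was represented by 3 of 16, IGH by 3 of 19 and TRB by 2 of 10. For these 3 loci the values describe an edge of the range and not the locus, and the other bins of their ranges were not analysed here. The ranges are rounded, so a bin inside a range need not hold a receptor segment.

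Replication was read in single S-phase cells of DKO1, the derivative of HCT116 in which DNMT1 and DNMT3B are knocked out, and of its parent HCT116, a human colorectal cancer line with both genes, here labelled WT. DNMT1 copies DNA methylation onto new strands and DNMT3B can add it at unmethylated sites. There was 1 S-phase library per line, with 207 DKO1 and 322 HCT116 cells from a pool of cells sorted as early, mid and late S by DNA content, and no cell barcode occurred in both. With 1 library per line, a difference between the lines cannot be told apart from one between libraries or cultures; no test was made, cells are not replicates, and the exact (Clopper-Pearson) 95% intervals below cover counting error of cells only.

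In a B or T cell precursor, the RAG recombinase joins separate variable (V), diversity (D) and joining (J) segments next to a constant (C) region, and each locus is transcribed and recombined in its own lineage and stage. Cells of other lineages, such as the colon epithelium from which HCT116 derives, keep these loci unrearranged and largely silent. Replication timing is known to follow the activity of large domains: active, gene-dense domains replicate early in S phase and silent ones late. The RefSeq gene table of GRCh38.p14 lists 49 V, 3 D and 62 J segments and 2 C regions for TRA/TRD, and 6 V and 5 J segments with 2 C regions for TRG. It lists 48 V, 27 D and 6 J segments for IGH, 44 V and 5 J segments for IGK, 38 V and 7 J segments for IGL and 49 V, 2 D and 13 J segments for TRB. No annotation of hg19 was used, so single segments were not placed in bins, and the table holds no expression with which to check that the loci are silent.

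How far a cell had gone through S phase, its progress, was measured as replicated bins in percent of all bins called in it. It ran from 9.49 to 78.5% in DKO1 (median 48.8%) and from 17.3 to 77.6% in HCT116 (median 52.7%), so the last part of S phase was not covered. To set the lines side by side at matched progress, cells were sorted into 10-point strata, and the 6 strata from 20 to 80% were weighted equally. They held 10 to 53 DKO1 cells and 19 to 82 HCT116 cells each. The percent of cells with a bin replicated, averaged in this way, is its standardised share, and a locus has the mean over its bins.

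The 6 loci did not replicate as one group. IGL was the earliest, with a standardised share of 85.8% in DKO1 and 80.9% in HCT116, followed by TRA/TRD with 67.9% in DKO1 and 63.3% in HCT116. IGK had 63.9% in DKO1 and 48.4% in HCT116, and TRG 47.1% in DKO1 and 33.2% in HCT116. The 2 bins at the edge of the TRB range had 30.8% in DKO1 and 20.9% in HCT116. The 3 bins of IGH, the last of chromosome 14 in the table, had 12.6% in DKO1 and 9.32% in HCT116. With all bins ranked on the mean of both lines and divided into 3 classes of equal size, 17 of the 39 bins were early, 17 middle and 5 late; the 5 late bins were those of TRB and IGH.

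The order was the same in both lines. On a logistic curve of locus state against progress measured on the other chromosomes, 50% replication was reached at a progress of 25.5% in DKO1 and 29.1% in HCT116 for IGL, and at 38.8% in DKO1 and 41.7% in HCT116 for TRA/TRD. IGK followed at 42.3% in DKO1 and 51.4% in HCT116, TRG at 52.8% in DKO1 and 60.8% in HCT116, and TRB at 62.3% in DKO1 and 68.6% in HCT116. All 5 thus reached it at less progress in DKO1, with differences, DKO1 minus HCT116, between -9.07 points for IGK and -2.92 points for TRA/TRD. IGH did not reach 50% within the progress observed. Its curve, extended beyond the cells, put 50% at 82.3% in DKO1 and 77.7% in HCT116, the reverse direction.

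**Figure D1:**
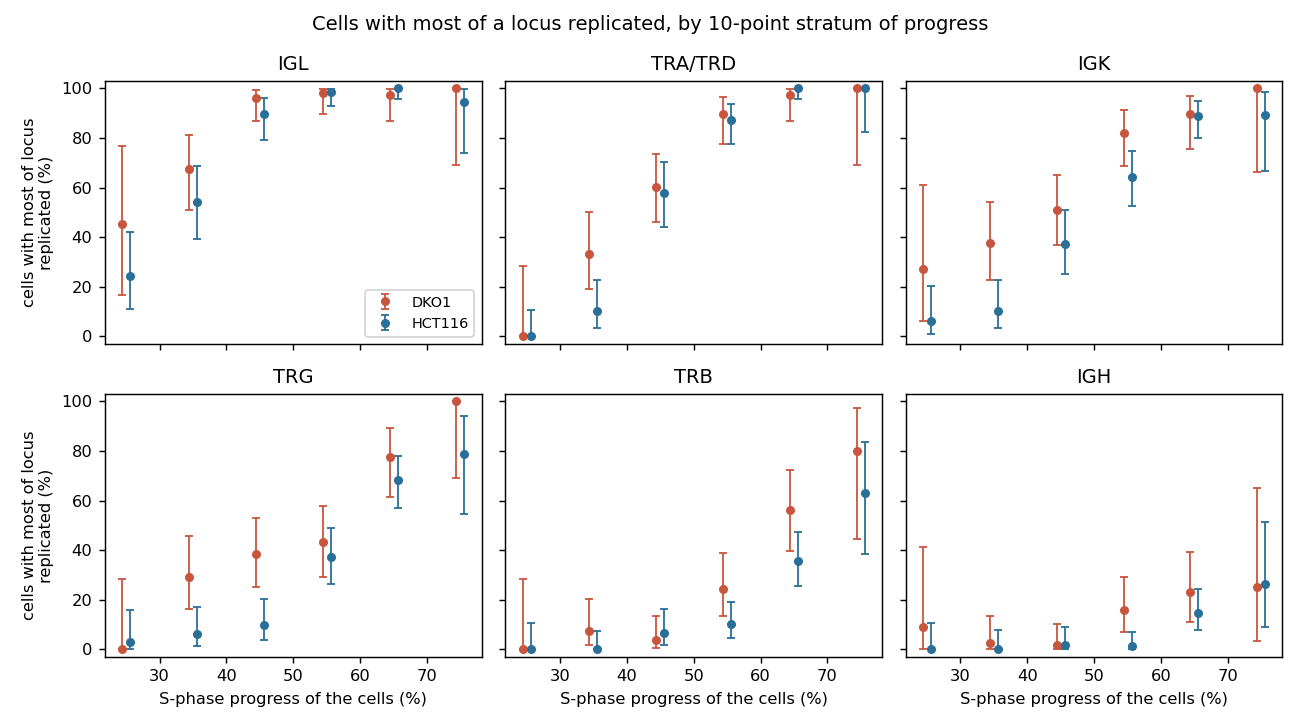
Percent of cells in which most called bins of a locus were replicated (y axis) in 10-point strata of S-phase progress (x axis, percent), for DKO1 (red) and HCT116 (blue), with points set side by side at each stratum. Bars are exact 95% intervals for counting error of cells. IGL is near its ceiling from the stratum at 40 to 50% on, the bars of TRG do not overlap at 40 to 50%, and IGH stays under 30% in every stratum.

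Single cells mostly kept this order. Among cells in which only one of a pair of loci was mostly replicated, IGL was the one in 130 of 131 DKO1 cells and 211 of 212 HCT116 cells when set against TRB, and in 45 of 50 DKO1 cells and 61 of 67 HCT116 cells when set against TRA/TRD. TRA/TRD preceded TRG in 61 of 79 DKO1 cells and 109 of 120 HCT116 cells. The neighbours TRA/TRD and IGK were less separated: TRA/TRD alone was replicated in 35 of 63 such DKO1 cells (55.6%) and in 62 of 86 such HCT116 cells (72.1%). TRB alone preceded IGH alone in 32 of 43 DKO1 cells and 46 of 58 HCT116 cells. Over all 6 loci, 118 of 188 DKO1 cells (62.8%, interval 55.4 to 69.7%) and 233 of 315 HCT116 cells (73.97%, interval 68.8 to 78.7%) had no locus replicated ahead of one earlier in the order. At 40 to 60% progress this held for 61 of 96 DKO1 cells (63.5%, interval 53.1 to 73.1%) and 93 of 135 HCT116 cells (68.9%, interval 60.4 to 76.6%). The intervals of the lines overlapped in both counts. Cells with none or all 6 loci replicated cannot break the order and were counted as keeping it. At any progress, 12 DKO1 cells had none and 9 had all, and 41 HCT116 cells had none and 3 had all. The order was read from the same cells, so the counts of cells in order describe it and do not support it.

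At matched progress, the locus mean was higher in DKO1 at all 6 loci, by 3.24 points at IGH, 4.57 at TRA/TRD, 4.92 at IGL, 9.82 at TRB, 13.9 at TRG and 15.5 at IGK. The direction turned at IGH with cells of few uncalled bins (-3.92 points) and at TRA/TRD under a filter that kept 2 of its bins (-1.87 points). Of the 39 bins, 32 were higher and 7 lower in DKO1, with a median difference of 6.99 points, while over all 27142 bins used 50.04% were higher and the median was 0.0085 points. A size threshold of 15 points was passed upward by 5 of the 39 locus bins (12.8%), against 6.90% of all bins, and downward by 0 locus bins, against 7.39% of all bins. The upward count of 5 was not stable: other settings at the same threshold gave 3 to 10 bins. Of the 5 bins, 2 were of IGK, 2 of TRG and 1 of TRA/TRD. The first bin of IGK and the last of TRG, both among these 5, lie partly outside the range of their locus. Neighbouring bins share states in a cell, so the 39 bins are not 39 independent observations, and nothing particular to these loci is read from the share past the threshold.

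The difference between these lines varied with timing: with all bins divided into deciles from late to early, the median difference was above 0 in the 4 latest deciles and below 0 in the other 6. All bins of the deciles in which the loci lie had a decile-weighted median difference of -3.66 points for IGK, -4.12 for IGL, -3.82 for TRA/TRD and -1.14 for TRG. These 4 loci, early or middle in timing, were therefore higher in DKO1 where bins of like timing were lower on balance. For TRB the like-timed median was 3.43 points, below its own 9.82, and for IGH it was 6.13 points, above its own 3.24.

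**Figure D2:**
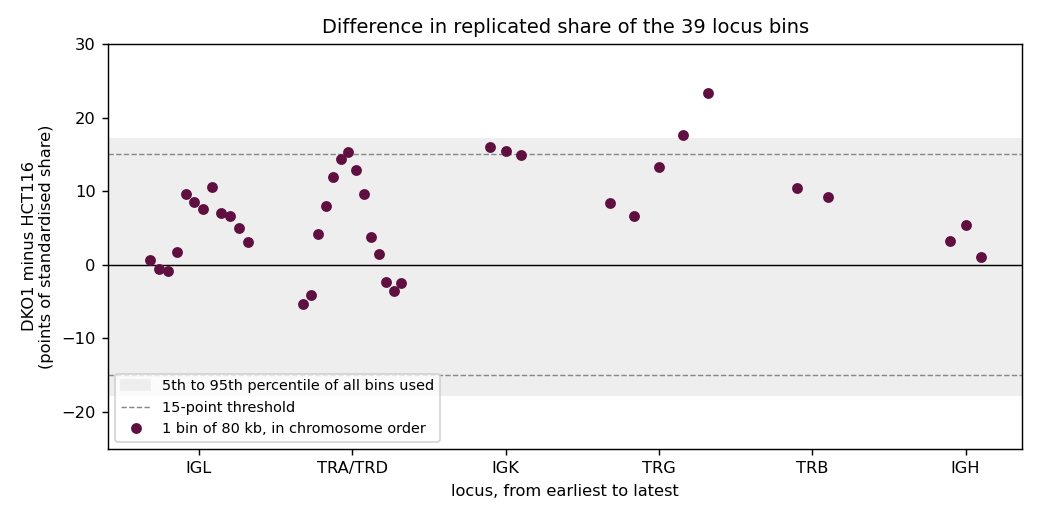
Difference in standardised share, DKO1 minus HCT116 in points (y axis), for each of the 39 bins of 80 kb, grouped by locus (x axis, from earliest to latest) and drawn in chromosome order within a locus. The grey band spans the 5th to 95th percentile of all bins used (-17.7 to 17.1 points) and the dashed lines mark 15 points; 2 bins of TRG lie above the band and none of the 39 lies below -5.33 points.

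Of the 3 loci with most of their bins in the table, TRA/TRD had the deepest trough inside it. The locus begins with the V segment TRAV1-1 and ends with TRAC, the constant region of the alpha chain, and the gene that follows, DAD1, encodes a subunit of the oligosaccharyltransferase. Both ends replicated early. The first bin (chromosome 14 from 22000001 to 22080000) had a share of 81.1% in DKO1 and 86.4% in HCT116, and the last (23040001 to 23120000) 92.3% in DKO1 and 94.7% in HCT116. Between them the share dropped to its lowest point at 22480001 to 22560000, with 51.4% in DKO1 and 36.1% in HCT116. The trough, taken as the mean of the end bins minus the lowest bin, was 35.3 points deep in DKO1 and 54.5 points in HCT116, against 14.6 points in DKO1 and 19.7 points in HCT116 for IGL.

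The lines differed in opposite directions at the rim and at the floor of this trough. The lowest bin was 15.3 points higher in DKO1 and its neighbours 14.3 and 12.9 points, while the 2 first bins differed by -5.33 and -4.07 points and the 3 last bins by -2.28 to -3.51 points. The flanks of 1 Mb on each side, 12 bins each, were also lower in DKO1 on average. Before the locus they had 87.7% in DKO1 and 91.4% in HCT116, and after it 92.2% in DKO1 and 93.8% in HCT116. The small locus mean of 4.57 points therefore joins a higher floor with lower rims.

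**Figure D3:**
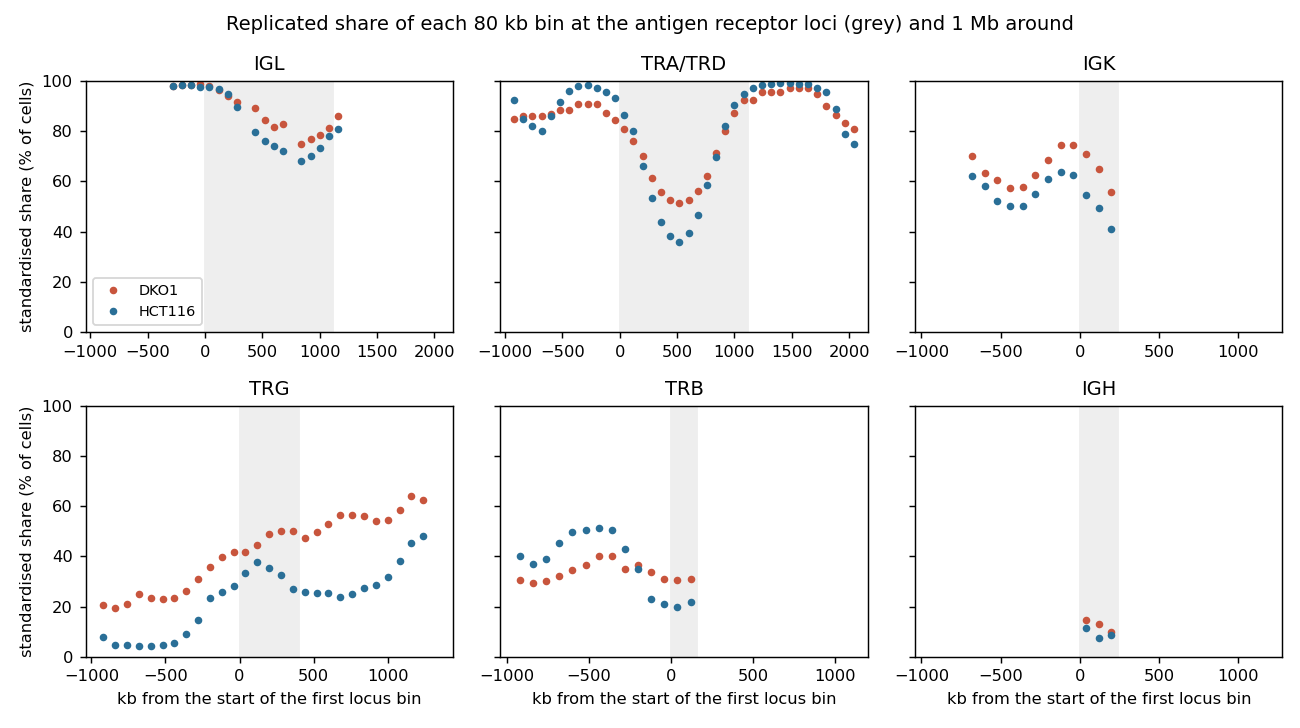
Standardised share of each 80 kb bin (y axis, percent of cells) along the 6 loci (grey) and up to 1 Mb on each side (x axis, kb from the start of the first locus bin), for DKO1 (red) and HCT116 (blue). The floor of TRA/TRD lies at 51.4% in DKO1 and 36.1% in HCT116, and at TRG the DKO1 shares go up to the fourth bin while the HCT116 shares peak in the second; stretches without points had no bin in the table.

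The trough was present in single cells as an unreplicated block. Of the cells with both end bins of TRA/TRD replicated, the lowest bin was still unreplicated in 73 of 175 DKO1 cells (41.7%, interval 34.3 to 49.4%) and in 169 of 280 HCT116 cells (60.4%, interval 54.4 to 66.1%). At 40 to 60% progress these were 48 of 95 DKO1 cells (50.5%, interval 40.1 to 60.9%) and 105 of 135 HCT116 cells (77.8%, interval 69.8 to 84.5%). At 60% progress and over, 2 of 49 DKO1 cells (4.08%, interval 0.498 to 13.98%) and 21 of 101 HCT116 cells (20.8%, interval 13.36 to 30.01%) still had it. These last intervals overlapped slightly. The reverse, a replicated lowest bin between 2 unreplicated ends, was found in 0 of 8 DKO1 and 0 of 6 HCT116 cells with neither end replicated.

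Within 10-point strata the contrast had the same direction. At 30 to 40% progress the lowest bin was unreplicated in 21 of 29 DKO1 cells with both ends replicated (72.4%, interval 52.8 to 87.3%) and in 32 of 33 such HCT116 cells (96.97%, interval 84.2 to 99.9%), with overlapping intervals and a mean progress of 36.1% in DKO1 and 35.7% in HCT116. At 40 to 50% it was unreplicated in 32 of 47 DKO1 cells (68.1%, interval 52.9 to 80.9%) and 54 of 58 HCT116 cells (93.1%, interval 83.3 to 98.1%), at a mean progress of 44.6% in DKO1 and 45.4% in HCT116. Most of the locus was replicated at 30 to 40% progress in 13 of 39 DKO1 cells (33.3%, interval 19.1 to 50.2%) and 5 of 48 HCT116 cells (10.4%, interval 3.47 to 22.7%). At 40 to 50% the counts were 32 of 53 DKO1 cells and 34 of 59 HCT116 cells, and at 60 to 70% 39 of 40 DKO1 cells and 82 of 82 HCT116 cells. A locus part replicated and part not was found in 50.7% of DKO1 and 66.04% of HCT116 cells. When exactly one end bin was replicated, it was the last, on the TRAC side in the RefSeq order, in 18 of 19 DKO1 cells and 28 of 35 HCT116 cells. That last bin lies partly outside the range of the locus. With only bins wholly inside the range, the last was the replicated one in 17 of 25 DKO1 cells (68%) and 21 of 32 HCT116 cells (65.6%).

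In nearly all of these cells the unreplicated part was 1 continuous stretch: in 71 of the 73 DKO1 cells and 167 of the 169 HCT116 cells. The median length of all unreplicated locus bins in these cells was 560 kb in DKO1 (range 160 to 960 kb) and 480 kb in HCT116 (range 80 to 960 kb). The lengths were not matched for progress, so they are not compared between the lines. Of the 73 DKO1 cells, 23 were under 40% progress and 2 at 60% or over. Of the 169 HCT116 cells, 43 were under 40% and 21 at 60% or over. Leaving out cells whose chromosome 14 as a whole departed from its relation to progress, which were 8.70% of DKO1 and 2.80% of HCT116 cells, gave 41.8% in DKO1 and 60.6% in HCT116 for the share with an unreplicated lowest bin. The lowest bin was picked from the shares of these cells, so its values are a description.

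**Figure D4:**
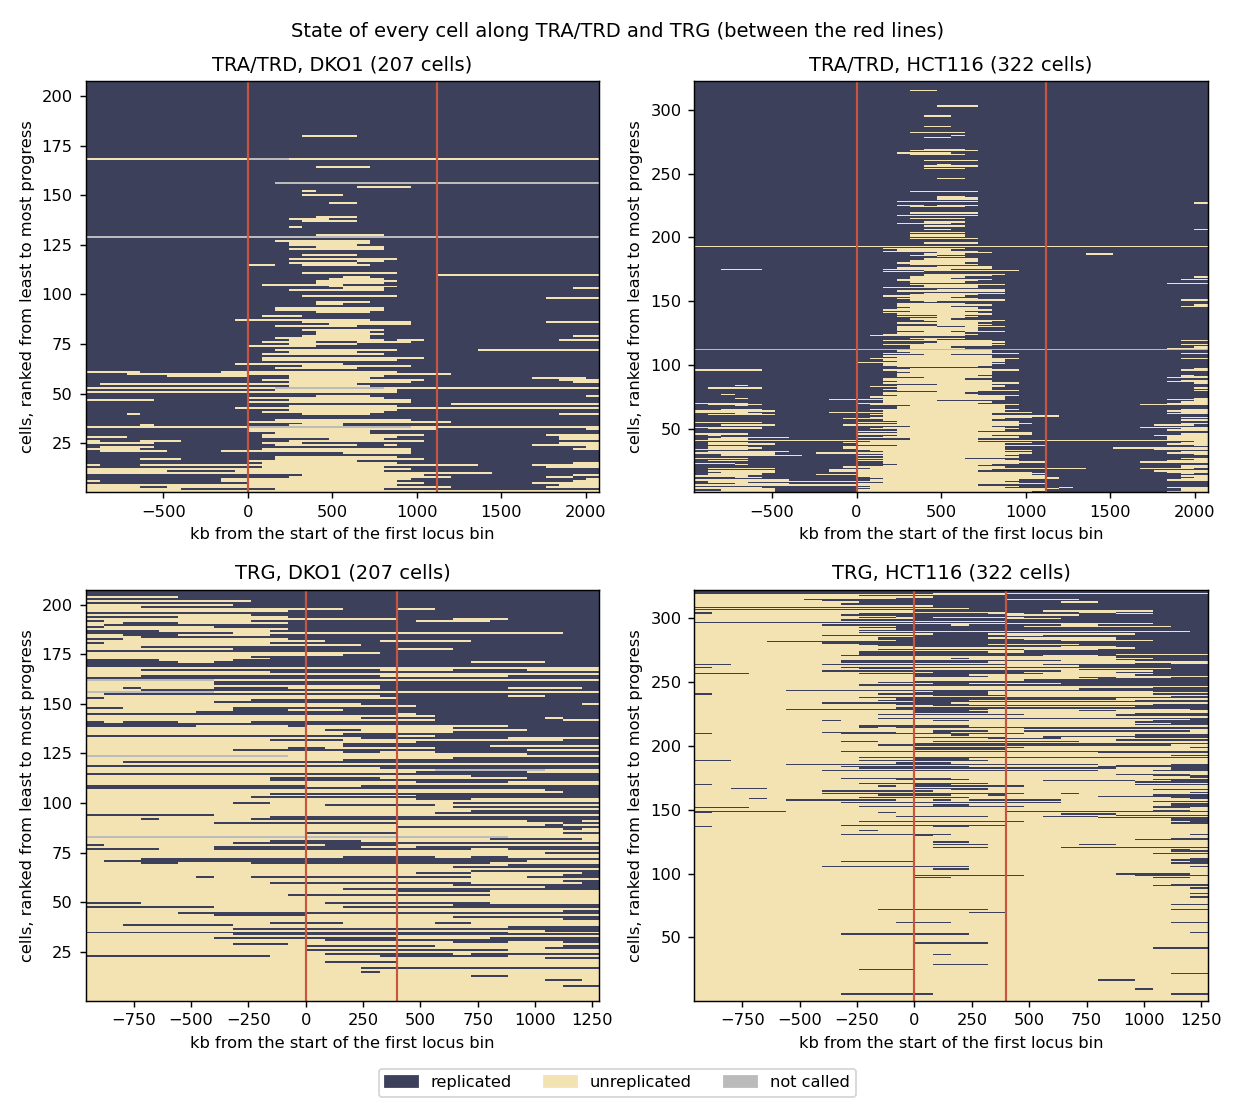
State of every 80 kb bin (x axis, kb from the start of the first locus bin) in every cell (y axis, ranked from least to most progress) at TRA/TRD (top) and TRG (bottom), in DKO1 (left) and HCT116 (right). Red lines bound the locus. Dark bins are replicated, pale ones unreplicated and grey ones not called. The lines are ranked separately, over 207 DKO1 and 322 HCT116 cells, so heights are not matched for progress between panels. At TRA/TRD many cells of both lines have an unreplicated block inside the locus, and replicated stretches right of TRG occur in both lines.

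TRG differed between the lines in size and also in direction. This short locus, which supplies the gamma chain of gamma-delta T cells, lies between STARD3NL and AMPH in the RefSeq order, with a C region (TRGC2) at its first end and a V segment (TRGV2) at its last. AMPH encodes amphiphysin, a synaptic endocytosis protein. In DKO1 the 5 bins had shares of 41.7, 44.4, 48.7, 50.3 and 50.3% in chromosome order. In HCT116 they had 33.3, 37.7, 35.4, 32.7 and 26.9%. The values thus went up to the fourth bin in DKO1 and stayed there, whereas in HCT116 the second bin was the highest and the last the lowest. The difference grew toward the far end, with 17.6 points at 38400001 to 38480000 and 23.3 points at 38480001 to 38560000 of chromosome 7, the last bin lying partly outside the range of the locus.

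Single cells partway through TRG differed between the lines in which end was replicated. The balance of these counts follows from the replicated counts of the end bins, so they describe the same contrast and do not support it. Among cells with exactly one end bin replicated, it was the far end, on the AMPH side, in 28 of 36 DKO1 cells (77.8%, interval 60.8 to 89.9%) and in 10 of 49 HCT116 cells (20.4%, interval 10.2 to 34.3%). Restricted to 40 to 60% progress, the far end came first in 15 of 20 DKO1 cells and 3 of 20 HCT116 cells. With only the 3 bins that lie wholly inside the range of the locus, the far end came first in 18 of 23 DKO1 cells (78.3%) and 3 of 30 HCT116 cells (10%). Genes were not placed in bins, so whether the far bins belong to TRG or to AMPH was not determined.

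The surroundings of TRG differed as well. In the 11 bins of the next 1 Mb the mean share was 55.7% in DKO1 and 31.4% in HCT116, and the largest difference, 32.6 points, lay at 38800001 to 38880000, with 56.4% in DKO1 and 23.8% in HCT116. In the 12 bins before the locus it was 27.5% in DKO1 and 11.5% in HCT116. The locus mean of 13.9 points was thus smaller than the 24.3 points after it and the 16.1 points before it. Inside TRG the difference dropped to 8.37 points in the first bin and 6.63 points in the next. Both lay below every bin of the flanks, where the lowest difference was 12.3 points before the locus and 14.4 points after it. The other bins of TRG, at 13.3, 17.6 and 23.3 points, lay within the range of the flank bins.

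By stratum, the largest gap at TRG between the lines was before mid S. At 30 to 40% progress most of TRG was replicated in 12 of 41 DKO1 cells (29.3%, interval 16.1 to 45.5%) and 3 of 48 HCT116 cells (6.25%, interval 1.31 to 17.2%), with intervals that overlapped slightly. At 40 to 50% they did not overlap, the counts being 20 of 52 DKO1 cells (38.5%, interval 25.3 to 52.98%) and 6 of 60 HCT116 cells (10%, interval 3.76 to 20.5%). At 50 to 60% they were 22 of 51 DKO1 cells (43.1%, interval 29.3 to 57.8%) and 29 of 78 HCT116 cells (37.2%, interval 26.5 to 48.9%), again with overlapping intervals. The fitted curve of TRG was flatter in DKO1, taking 27.04 points of progress between 25 and 75% replicated, against 19.1 points in HCT116.

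IGK had the largest difference of the 6 locus means. Its 3 bins, on chromosome 2 from 89040001 to 89280000, lie at the edge of the range, the first of them partly outside it. At this edge the RefSeq order begins with IGKC, the constant region, after RPIA, an enzyme of the pentose phosphate pathway. The shares were 70.7, 64.9 and 55.99% in DKO1 and 54.8, 49.4 and 41.1% in HCT116. They thus dropped along these 3 bins in both lines and differed by 16.0, 15.5 and 14.9 points. The counts of cells with exactly one end bin replicated restate this slope, because their balance follows from the replicated counts of the end bins. The first end was the replicated one in 38 of 40 DKO1 and 63 of 67 HCT116 cells. The 9 bins of the 1 Mb before IGK differed in the same direction by 4.87 to 12.1 points, with a mean share of 65.4% in DKO1 and 57.3% in HCT116.

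At 30 to 40% progress most of the 3 IGK bins was replicated in 15 of 40 DKO1 cells (37.5%, interval 22.7 to 54.2%) and 5 of 48 HCT116 cells (10.4%, interval 3.47 to 22.7%). At 40 to 50% the intervals overlapped, with 27 of 53 DKO1 cells (50.9%, interval 36.8 to 64.9%) and 22 of 59 HCT116 cells (37.3%, interval 25.04 to 50.9%). At 60 to 70% the levels were close, with 35 of 39 DKO1 cells (89.7%) and 73 of 82 HCT116 cells (89.02%).

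IGL, which supplies lambda light chains, was early at one end and less so at the other. The first bin, on chromosome 22 from 22240001 to 22320000, had 98.2% in DKO1 and 97.6% in HCT116, and the lowest bin, at 23040001 to 23120000, had 75.1% in DKO1 and 68.1% in HCT116. The first 4 bins differed by -0.83 to 1.78 points and the other 8 by 3.10 to 10.6 points, all higher in DKO1, with the largest at 22880001 to 22960000 (82.9% in DKO1 and 72.3% in HCT116). When exactly one end bin was replicated, it was the first end in 25 of 31 DKO1 cells and 51 of 52 HCT116 cells.

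For the shallow dip inside IGL the intervals of the lines overlapped at 30 to 50% progress. At 30 to 40%, with both end bins replicated, the lowest bin was unreplicated in 5 of 26 DKO1 cells (19.2%, interval 6.55 to 39.4%) and 9 of 21 HCT116 cells (42.9%, interval 21.8 to 65.98%). At 40 to 50% the counts were 9 of 47 DKO1 cells (19.1%, interval 9.15 to 33.3%) and 11 of 54 HCT116 cells (20.4%, interval 10.6 to 33.5%). Over all such cells under 40% progress the intervals did not overlap. The counts were 5 of 29 DKO1 cells (17.2%, interval 5.85 to 35.8%) and 18 of 32 HCT116 cells (56.25%, interval 37.7 to 73.6%). Their mean progress was 35.8% in DKO1 and 33.0% in HCT116, so progress was less closely matched. At 20 to 30% there were few cells, with 0 of 3 in DKO1 and 9 of 11 in HCT116.

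The late edges rest on few bins. At TRB, whose 2 bins lie on chromosome 7 from 141840001 to 142000000, the shares were 30.4 and 31.1% in DKO1 and 20.01 and 21.8% in HCT116. The first of these bins lies partly outside the range, and whether either holds a TRB segment was not checked. Most of the edge was replicated at 40 to 50% progress in 2 of 51 DKO1 cells (3.92%) and 4 of 60 HCT116 cells (6.67%), and at 50 to 60% in 12 of 49 DKO1 cells (24.5%) and 8 of 78 HCT116 cells (10.3%). The largest gap was at 60 to 70%, with 22 of 39 DKO1 cells (56.4%, interval 39.6 to 72.2%) and 29 of 81 HCT116 cells (35.8%, interval 25.4 to 47.2%), and these intervals overlapped. The 1 Mb before it differed in the other direction on average, with 34.2% in DKO1 and 40.4% in HCT116 over 12 bins, but the sign turned within it. The bin at 141200001 to 141280000, some way before the edge, had 34.7% in DKO1 and 49.8% in HCT116, while the 3 bins next to the edge were higher in DKO1, by 1.56, 10.9 and 10.3 points toward it.

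At IGH, the V end of the locus next to the end of chromosome 14, the 3 bins from 107040001 to 107280000 had shares of 14.8, 12.9 and 9.92% in DKO1 and 11.6, 7.53 and 8.86% in HCT116. Most of the stretch was replicated in 22 of 200 DKO1 cells (11%, interval 7.02 to 16.2%) and 19 of 319 HCT116 cells (5.96%, interval 3.62 to 9.15%). At 60% progress and over it was replicated in 11 of 47 DKO1 cells (23.4%) and 17 of 101 HCT116 cells (16.8%). Under 40% it was replicated in 2 of 51 DKO1 cells (3.92%, interval 0.478 to 13.5%) and 0 of 80 HCT116 cells (interval 0 to 4.51%). IGH was also the locus with the most uncalled bins, 3.70% of calls in DKO1 and 0.932% in HCT116. At the other 5 loci the uncalled share ran from 0.483 to 2.90% in DKO1 and from 0 to 0.311% in HCT116. Among cells with at most 1% of their bins uncalled, 60 DKO1 and 187 HCT116 cells at 30 to 70% progress, the share was 1.67% in DKO1 and 5.59% in HCT116, a difference of -3.92 points, against 5.42 points with all cells of the same strata. The direction at IGH thus turned with the choice of cells, and the part of uncalled bins in it was not tested.

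Cells of one line at like progress differed from each other by locus. Over pairs of cells at 40 to 60% progress within 5 points of each other, 47.7% of TRG bins differed between DKO1 cells and 36.3% between HCT116 cells. At TRB it was 28.2% in DKO1 and 16.3% in HCT116, at IGH 13.97% in DKO1 and 4.50% in HCT116, and at TRA/TRD 28.7% in DKO1 and 24.8% in HCT116. IGL had 10.96% in DKO1 and 9.60% in HCT116, and IGK had 40.1% in DKO1 and 44.4% in HCT116, the one locus where HCT116 cells differed more. Over all bins used the values were 23.1% in DKO1 and 17.1% in HCT116. The measure is highest for a bin that about as many cells have replicated as not, so it varies with timing too.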

How the data were processed

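The authors deposited 1 table of state codes (0, 1 or 2), with a value for each bin of 80 kb in each cell; its name calls them binarised calls of a hidden Markov model. Per the submitters' processing notes, Cell Ranger, SAMtools 1.10, bedtools 2.26.0, hg19 and GRCh37 were used. Neither reads per cell nor the model's settings could be read from the sources used here. The depth behind a call is therefore unknown, as is how far the model ties neighbouring bins. The table leaves the codes undefined. Chromosomes with more protein-coding genes per length had more of code 2 (Spearman's rho 0.857 in DKO1 and 0.858 in HCT116 over the 21 autosomes with at least 100 bins, a description), and on that basis 2 was taken as replicated, 1 as unreplicated and 0 (2.80% of DKO1 and 1.08% of HCT116 calls) as uncalled. Chromosome 8, left out with its 21 bins here, ran against this relation, with 4.93 genes per Mb and 94.2% of code 2 in DKO1 and 90.99% in HCT116.

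A bin was kept if 90% or more of each line's cells had a call (27142 bins, all 39 locus bins among them), and a stratum if each line had 5 or more cells in it. A cell entered the count for a locus when at least 50% of the locus bins had a call, and "most" means over 50% of these. Which end was more often the only one replicated follows from how many cells had each end bin replicated. Named were all 6 loci and their highest, lowest and most different bins, with any past 15 points. The loci, rules and measures were chosen with earlier results of these data known. The 2 G1 libraries were not analysed here, and doublets were not searched for. The standardised share and the logistic curve were tested on simulated cells whose bins were independent. The counts of cells by locus, end or pair were not tested in this way. Python 3.11.15, NumPy 2.4.6, SciPy 1.17.1 and pandas 2.3.3 were used.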

Additional observations from a re-analysis of the deposited data

How the results depend on the processing

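Each locus mean was recomputed with other settings. These were code 0 as unreplicated, 5-point strata, no matching of progress, strata from 30 to 70% only and other filters on bins. Others were cells of little code 0 (1% of bins or less), progress from the other chromosomes and bins wholly inside the range of the locus. A further setting, chosen after seeing the data, left out cells whose locus chromosome was outlying. IGK stayed between 12.6 and 17.6 points, TRG between 12.5 and 17.1, TRB between 6.51 and 11.2 and IGL between 2.65 and 7.08, all higher in DKO1. TRA/TRD stayed between 4.46 and 8.32 points except when 99% of cells had to have a call, which kept 2 of its 14 bins and gave -1.87. That filter left no bin of IGH, IGK or TRB. IGH ranged from -3.92 points, with cells of little code 0, to 5.42 points; the cause was not tested. The count of 5 bins past 15 points upward, with 6.90% of all bins, became 8 with code 0 as unreplicated (6.78% of all bins under that setting), 9 with 5-point strata (7.15%), 3 without matching (5.44%), 10 with strata from 30 to 70% (7.59%), 3 of 19 bins with the 99% filter (8.14%), 8 with cells of little code 0 (6.79%; 60 DKO1 and 187 HCT116 cells), 3 with progress from the other chromosomes (6.83%) and 7 without outlying cells (6.79%). It stayed 5 with no filter on bins (6.77%). At 10 points it was 12 (14.7% of all bins) and at 20 points 1 (3.24%). The downward count was 0 in each of these, against 6.74 to 8.98% of all bins at 15 points, 14.8% at 10 and 3.57% at 20. The TRA/TRD block differed by -27.3 to -16.3 percentage points and the far-end count at TRG by 49.4 to 68.3 points under the settings added for them. No paired analysis was possible because each line has 1 library.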
